A study of Mus musculus with 6 samples.

Results

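Transcripts of 10 genes of the neuronal cytoskeleton were examined in mouse frontal cortex, namely the neurofilament subunits Nefl, Nefm, Nefh and Ina, the microtubule-associated proteins Mapt, Map2, Map1a and Map1b, the tubulin Tubb3 and the tubulin-binding protein Stmn2. They were chosen by symbol, and all 10 were found among the 33000 genes of the count table. RNA was sequenced with the Illumina TruSeq mRNA protocol from 3 wild-type (WT) and 3 homozygous GFAP-IL6 mice on the C57BL/6 strain, all 3 months old. In GFAP-IL6 mice the cytokine IL6 is expressed under the GFAP promoter, which is active in astrocytes. The RNA came from bulk tissue, and the cells that express the transgene were not identified in these data. WT mice carry no transgene.

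Neurofilaments are the intermediate filaments of axons. They are built on the light chain Nefl, together with the medium and heavy chains Nefm and Nefh, whose long tails project from the filament, and with Ina (α-internexin) in the central nervous system. Microtubules are polymers of α- and β-tubulin, among which Tubb3 is the β-tubulin characteristic of neurons. Tau (Mapt) binds microtubules mainly in axons and Map2 mainly in dendrites, while Map1b is prominent in growing and Map1a in mature neurons. Stathmins such as Stmn2 bind tubulin dimers and regulate microtubule dynamics. These proteins are widely used as markers of axons, dendrites and axonal damage.

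Expression is given as CPM, counts scaled to a common library total (per M, for mega) after TMM, a scaling that balances libraries on the bulk of their genes. Total counts ranged from 7559524 to 16877001 per library, and each GFAP-IL6 library was shallower than each WT library. A single member had 609 to 28362 counts in a library, and the 10 genes together took 0.575% to 0.665% of the counts. Il6 was counted 0, 2 and 0 times in the WT libraries and 12, 10 and 24 times in the GFAP-IL6 libraries. The neuronal identity of the tissue was checked with 12 neuron markers, all detected, which summed to 14642 to 16182 CPM in WT and 13896 to 15386 CPM in GFAP-IL6. WT replicate 2 stood apart from the other libraries. A chi-square test of counts, divided by its degrees of freedom, gave 11.6 to 20.1 for its pairs with other libraries and 2.23 to 10.01 for pairs without it. Its markers of striatum summed to 473 CPM, against 245 to 320 CPM elsewhere. For single genes, the log2 fold change without WT replicate 2 is therefore also given where it moved by over 1.5 times.

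The genes lie on 8 chromosomes of the GRCm38 assembly. On chromosome 14, Nefl (68083863 to 68089095, plus strand) and Nefm (68082590 to 68124846, minus strand) are annotated over the same stretch, and 1108 of their exon bases coincide on opposite strands, 32.8% of those of Nefl and 19.2% of those of Nefm. Since the strand setting of the counting was not stated, reads from this stretch cannot be assigned with certainty to either gene, and the values of Nefl and Nefm are uncertain to that extent. Ina (chromosome 19, 47014698 to 47025327, plus strand) shares 456 exon bases, or 14.1% of its own, with Nt5c2 on the opposite strand. Nefh lies on chromosome 11 (4938754 to 4948064, minus strand), as does Mapt (104231390 to 104332090, plus strand). Map2 lies on chromosome 1 (66175273 to 66442583, plus strand), Map1a on chromosome 2 (121289600 to 121310832, plus strand) and Map1b on chromosome 13 (99421446 to 99516540, minus strand). Map1a shares 2.24% of its exon bases with Ppip5k1 and Map2 0.754% with Gm10558. Tubb3 (chromosome 8, 123411424 to 123422015, plus strand) and Stmn2 (chromosome 3, 8509360 to 8561606, plus strand) overlap no exon of another gene.

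The RefSeq promoter table (GRCm38.p6) held 5 of the 10 members, Ina, Map1a, Map1b, Map2 and Tubb3. The 250 bases before the start of Ina, Map1a and Map1b are shown because these genes had their lowest level in the same library. It was WT replicate 2, also the lowest library for Nefm, Nefh and Mapt, and its levels ran with gene length. A link between promoter sequence and level was not tested. Capitals mark the GC box GGGCGG, a binding motif of Sp-family factors, on either strand, where the reverse strand reads CCGCCC. The windows are chr19:47014431-47014680 (plus strand) for Ina, chr2:121289352-121289601 (plus strand) for Map1a and chr13:99516603-99516852 (minus strand) for Map1b.
Ina: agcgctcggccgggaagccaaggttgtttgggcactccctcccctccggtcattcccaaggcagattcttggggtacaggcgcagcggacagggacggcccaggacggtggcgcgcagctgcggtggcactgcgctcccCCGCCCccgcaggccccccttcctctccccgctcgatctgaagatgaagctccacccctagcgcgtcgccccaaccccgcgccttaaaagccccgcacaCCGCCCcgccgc
Map1a: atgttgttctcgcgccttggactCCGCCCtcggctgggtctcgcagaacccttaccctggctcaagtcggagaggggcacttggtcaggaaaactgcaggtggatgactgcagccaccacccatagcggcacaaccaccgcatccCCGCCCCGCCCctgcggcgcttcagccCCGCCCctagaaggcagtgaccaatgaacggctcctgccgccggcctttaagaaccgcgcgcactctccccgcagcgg
Map1b: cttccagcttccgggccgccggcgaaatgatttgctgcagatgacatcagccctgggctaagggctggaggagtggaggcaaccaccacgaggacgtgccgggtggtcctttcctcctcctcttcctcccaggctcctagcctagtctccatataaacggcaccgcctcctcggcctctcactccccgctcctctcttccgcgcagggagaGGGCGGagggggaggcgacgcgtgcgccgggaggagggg
All 5 windows were rich in G and C, from 66.0% in Map1a to 81.2% in Map2, against a median of 52.4% over all promoters. The GC box occurred 2 times in Ina, 4 times in Map1a, where a pair overlaps, 1 time in Map1b, 5 times in Map2 and 2 times in Tubb3. It was present in 33.0% of 32536 promoters of this length. The TATA sequence TATAAA, searched on both strands, occurred in Map1b only among the 5, and in 12.3% of all promoters. CCAAT occurred in Map1a and Tubb3 and in 33.8% of all promoters. Neither TTCAGCACC nor GGACAGCGC, both parts of the element bound by the neuronal repressor REST, was found in the 5 windows, and each was present in 0.301% and 0.304% of all promoters.

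The comparison of GFAP-IL6 with WT asked whether transcripts of the neuronal cytoskeleton differed between the genotypes. None of the 10 genes passed an adjusted p of 0.05 by edgeR. Over all 15341 genes tested 2.86% did, and over the 3233 genes at least as abundant as Nefh 1.05% did. At shares this low, the lack of a call among 10 genes does not set them apart from other genes. The fitted change was higher in GFAP-IL6 for 6 genes and lower for 4, with a median log2 fold change of 0.04, against -0.0038 over all genes tested. The 95% intervals of all 10 genes lay between log2 fold changes of -0.44 and 0.40, or folds of 0.736 and 1.32. An unadjusted p under 0.05 was reached by 1 member, Stmn2, and by 20.5% of all genes. The libraries of the groups did not overlap in 2 members, Stmn2 and Mapt, and in 26.5% of all genes.

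**Figure D1:**
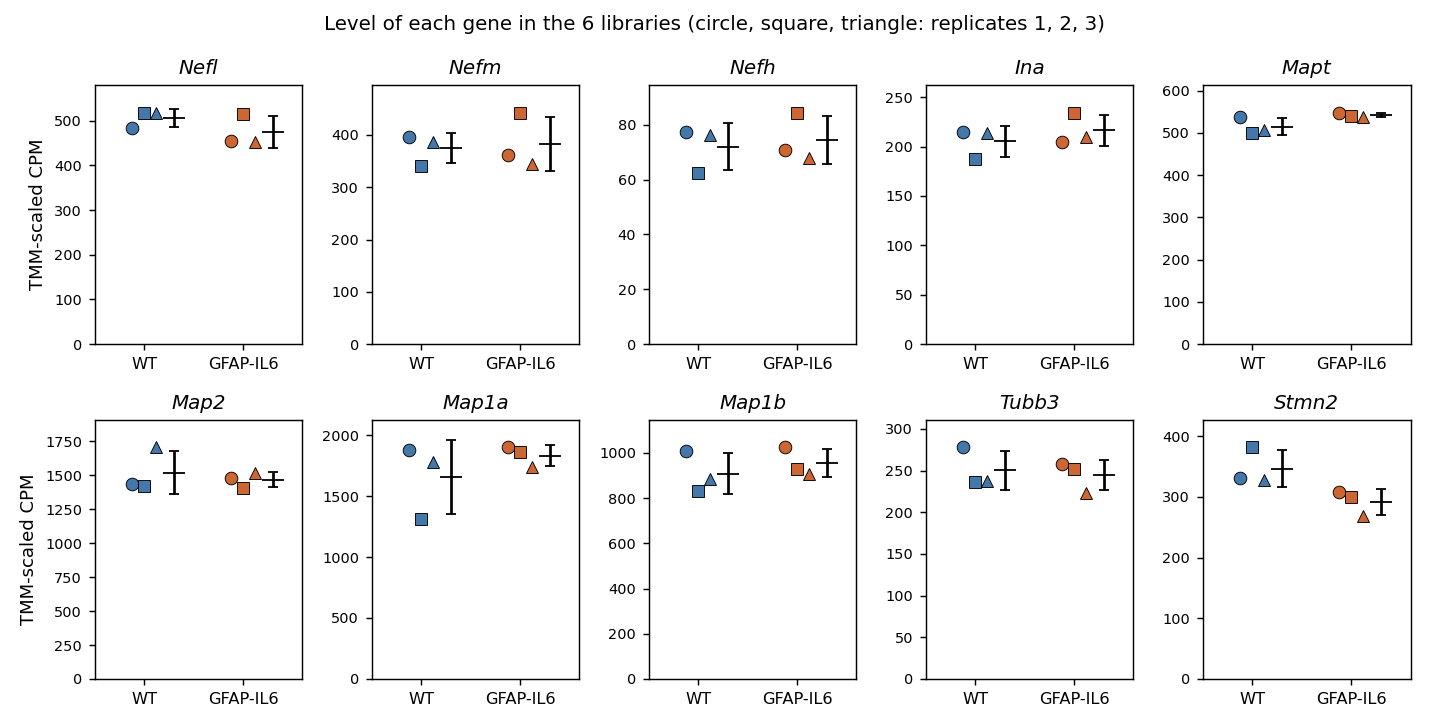
Level of each of the 10 genes in TMM-scaled CPM (vertical axes, starting at 0) in the 3 WT and 3 GFAP-IL6 libraries, with the replicate number given by the marker and the mean ± SD (n = 3) in black. The groups overlap for every gene except Stmn2, which is lower in all GFAP-IL6 libraries, and Mapt, whose groups are 0.314 CPM apart.

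Among the neurofilament subunits, Nefl (ENSMUSG00000022055.7) had 483, 517 and 518 CPM in WT replicates 1, 2 and 3 and 453, 515 and 453 CPM in GFAP-IL6. Only GFAP-IL6 replicate 2 reached the range of WT. This gave a log2 fold change of -0.10 ± 0.08 (SE, 95% interval -0.27 to 0.08, adjusted p of 0.527), and the estimate was -0.16 without GFAP-IL6 replicate 2 and -0.06 without GFAP-IL6 replicate 3. Nefm (ENSMUSG00000022054.9) had 395, 341 and 387 CPM in WT and 361, 442 and 344 CPM in GFAP-IL6. Here WT replicate 2 was the lowest library and GFAP-IL6 replicate 2 the highest, with the other 4 libraries between them. For Nefm the log2 fold change was 0.03 ± 0.10 (SE, 95% interval -0.19 to 0.25, adjusted p of 0.895).

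Nefh (ENSMUSG00000020396.8), the heavy chain, had 77.5, 62.3 and 76.2 CPM in WT and 70.8, 84.4 and 68.0 CPM in GFAP-IL6. The lowest and highest libraries were the same as for Nefm. For Nefh it was 0.05 ± 0.11 (SE, 95% interval -0.19 to 0.28, adjusted p of 0.839). Ina (ENSMUSG00000034336.3) had 214, 187 and 214 CPM in WT and 205, 234 and 210 CPM in GFAP-IL6, again lowest in WT replicate 2 and highest in GFAP-IL6 replicate 2. For Ina it was 0.08 ± 0.09 (SE, 95% interval -0.11 to 0.27, adjusted p of 0.651). Without WT replicate 2 the estimates of Nefm and Nefh were -0.03 and -0.05, and that of Ina was 0.01. Without GFAP-IL6 replicate 2 they were -0.09 for Nefm, -0.05 for Nefh and 0.02 for Ina, so that the sign of Nefm and Nefh rested on single libraries.

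The balance of the subunits was examined on a scale corrected for gene length, TPM (transcripts per M). The deposited length was used, which for Nefm was 5782 bases, against 3680 in its longest transcript, so the shares depend on it. The 4 subunits summed to 821 ± 45.8 TPM in WT and 850 ± 72.1 TPM in GFAP-IL6 (mean ± SD, n = 3 per group). Nefl made up 50.6% ± 2.76 of this sum in WT and 48.1% ± 0.722 in GFAP-IL6 (mean ± SD, n = 3 per group), and the groups overlapped. The shares of Nefm were 21.9% and 22.6%, and those of Nefh 6.08% and 6.37%, with overlapping libraries in both. Ina made up 22.3%, 20.3% and 21.6% in WT and 22.8%, 22.4% and 23.5% in GFAP-IL6. The share of Ina was thus higher in each GFAP-IL6 library, by a small margin over WT replicate 1. The ratio of Ina to Nefl was 0.463, 0.378 and 0.431 in WT and 0.471, 0.475 and 0.484 in GFAP-IL6, also without overlap. With 3 against 3 libraries an exact permutation test cannot give a p under 0.1, and 26.5% of single genes were as separated, so this separation is given as a description.

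**Figure D2:**
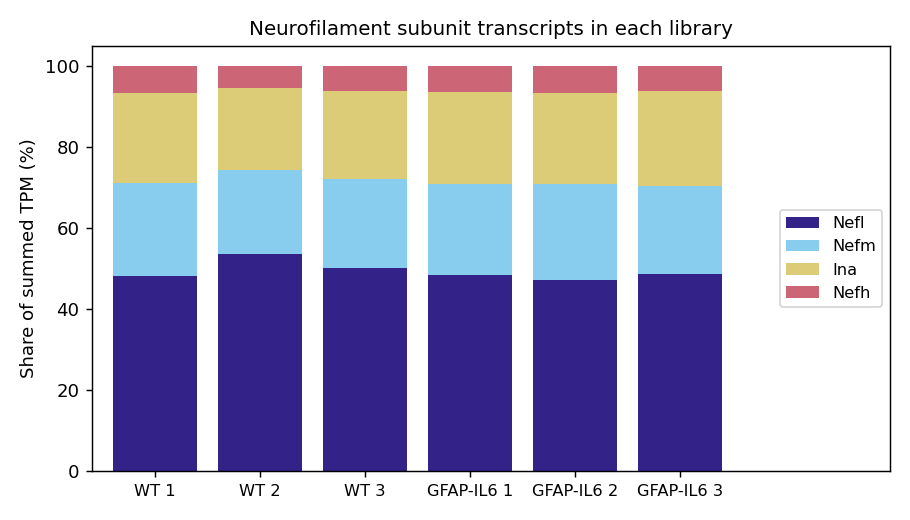
Share of Nefl, Nefm, Ina and Nefh in their summed TPM (vertical axis, %) for each of the 6 libraries. Nefl takes 47.3% to 53.6% of the sum, with the highest value in WT replicate 2, and Nefh 5.46% to 6.55%.

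Of the microtubule-associated proteins, Mapt (ENSMUSG00000018411.15) had 537.0, 499.0 and 506.6 CPM in WT and 547.8, 540.5 and 537.3 CPM in GFAP-IL6. Every GFAP-IL6 library was above every WT library, but the nearest libraries were 0.314 CPM apart. For Mapt this gave a log2 fold change of 0.08 ± 0.07 (SE, 95% interval -0.08 to 0.23, adjusted p of 0.582). Map2 (ENSMUSG00000015222.15) had 1435, 1418 and 1704 CPM in WT and 1477, 1405 and 1516 CPM in GFAP-IL6. WT replicate 3 was the highest library, and the remaining WT libraries lay within the range of GFAP-IL6. For Map2 the log2 fold change was -0.05 ± 0.09 (SE, 95% interval -0.25 to 0.14, adjusted p of 0.774), and it was 0.04 without WT replicate 3 and -0.10 without WT replicate 2. The ratio of Map2 to Mapt in TPM, dendritic over axonal protein transcripts, was 1.86 ± 0.226 in WT and 1.70 ± 0.0696 in GFAP-IL6 (mean ± SD, n = 3 per group), with overlapping libraries.

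Map1a (ENSMUSG00000027254.11) had 1874, 1313 and 1781 CPM in WT and 1898, 1859 and 1736 CPM in GFAP-IL6. WT replicate 2 lay far below the other 5 libraries, which spanned 1736 to 1898 CPM. The log2 fold change of Map1a, the highest of the 10 genes, was 0.15 ± 0.12 (SE, 95% interval -0.11 to 0.40, adjusted p of 0.501), and it was 0.0024 without WT replicate 2 and 0.24 without WT replicate 1. Map1b (ENSMUSG00000052727.5) had 1008, 830 and 885 CPM in WT and 1024, 930 and 907 CPM in GFAP-IL6, with WT replicate 1 inside the range of GFAP-IL6. For Map1b it was 0.07 ± 0.09 (SE, 95% interval -0.13 to 0.27, adjusted p of 0.687), and it was 0.0096 without WT replicate 2, 0.15 without WT replicate 1 and 0.02 without GFAP-IL6 replicate 1. The ratio of Map1b to Map1a in TPM was 0.559 ± 0.0696 in WT and 0.523 ± 0.0198 in GFAP-IL6 (mean ± SD, n = 3 per group), and the groups overlapped.

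Tubb3 (ENSMUSG00000062380.3) had 278, 236 and 237 CPM in WT and 258, 252 and 224 CPM in GFAP-IL6. The highest library was WT replicate 1 and the lowest GFAP-IL6 replicate 3, with the others interleaved. The log2 fold change of Tubb3 was -0.03 ± 0.09 (SE, 95% interval -0.23 to 0.17, adjusted p of 0.875). It was 0.05 without WT replicate 1, -0.07 without WT replicate 2 and 0.03 without GFAP-IL6 replicate 3.

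In the main edgeR fit, Stmn2 (ENSMUSG00000027500.10) was the member that differed most. It had 330, 382 and 329 CPM in WT and 308, 300 and 268 CPM in GFAP-IL6. The groups were separated, with GFAP-IL6 lower by a gap of 20.3 CPM. The fold was 0.842 (95% interval 0.736 to 0.962) and the log2 fold change -0.25 ± 0.09 (SE). The unadjusted p was 0.0158 and the adjusted p 0.154 by edgeR, so that Stmn2 did not pass the threshold over all genes. Its adjusted p was at least 0.0848 in every alternative, and without WT replicate 2, its highest library, the log2 fold change was -0.17. The ratio of Stmn2 to Tubb3 in TPM was 1.07, 1.46 and 1.25 in WT and 1.08, 1.07 and 1.08 in GFAP-IL6. The WT libraries differed widely in this ratio, and WT replicate 1 equalled GFAP-IL6.

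**Figure D3:**
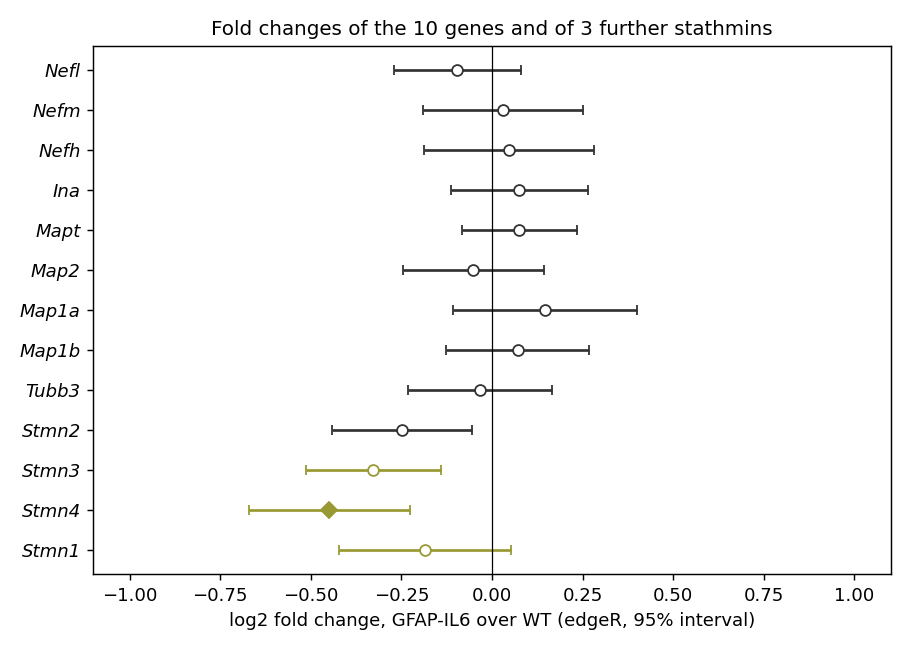
Log2 fold change of GFAP-IL6 over WT (horizontal axis) with 95% intervals from edgeR for the 10 genes and, in olive, 3 further stathmins. Open circles did not pass an adjusted p of 0.05, and the filled diamond of Stmn4 did. The intervals of 9 members include 0, and that of Stmn2 runs from -0.44 to -0.06.

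In TPM, the scale on which levels can be compared between genes, the order by the WT mean was Stmn2 (464 ± 28.5), Nefl (415 ± 9.44), Map2 (414 ± 46.4), Map1a (387 ± 80.05), Tubb3 (372 ± 45.5), Mapt (224 ± 15.1), Map1b (213 ± 27.5), Nefm (180 ± 18.9), Ina (176 ± 17.8) and Nefh (50.1 ± 7.18; SD, n = 3 each). In GFAP-IL6 the highest mean was that of Map1a, at 448 ± 23.4 TPM, and Stmn2 had 411 ± 32.3 TPM (mean ± SD, n = 3 per group). Over all 6 libraries, the ranges of neighbours in this order overlapped except between Tubb3 and Mapt and between Ina and Nefh. With the deposited gene lengths, the genes thus formed an upper set of 5, a middle set of 4 and Nefh. The order within the sets was not resolved beyond the spread of the libraries. These lengths differ from the longest transcripts of GENCODE M21, so the order and the sets depend on them. They were 10180 against 6258 bases in Map2, 5782 against 3680 in Nefm and 2073 against 3413 in Stmn2. Nefh, whose product is the largest neurofilament subunit, had the lowest transcript level of the 10.

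**Figure D4:**
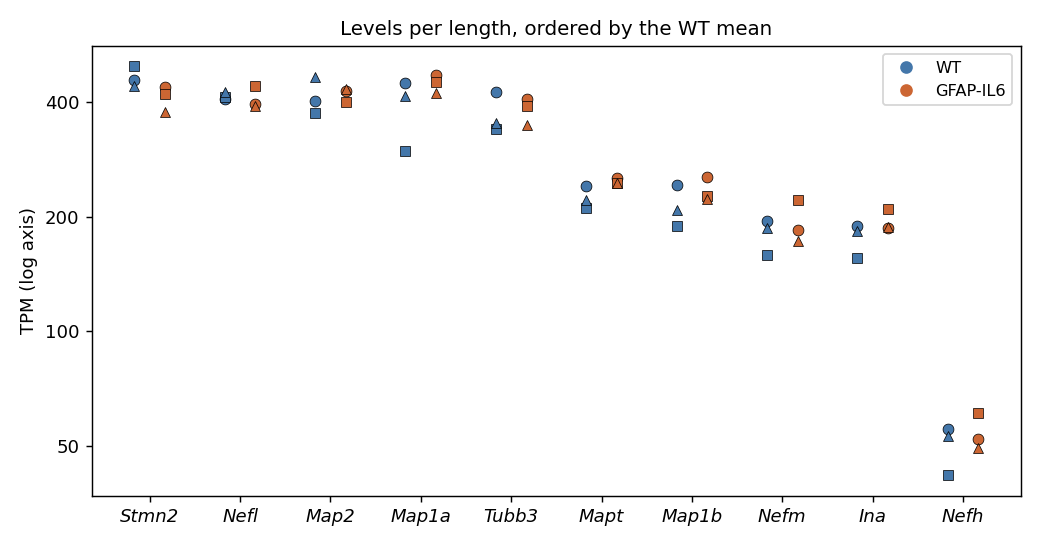
TPM (vertical axis, log scale) of each gene in the 3 WT (blue) and 3 GFAP-IL6 (orange) libraries, with replicates 1, 2 and 3 as circles, squares and triangles, ordered by the WT mean. The 5 genes on the left lie between 297 and 496 TPM, the middle 4 between 156 and 255 TPM, and Nefh between 42.0 and 61.1 TPM.

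The precision of these values was compared with that of other genes. The coefficient of variation over the 3 libraries ranged from 3.91% to 18.1% (Map1a) in WT and from 0.991% (Mapt) to 13.7% (Nefm) in GFAP-IL6, and 7 of the 10 genes varied more in WT. Over the 3233 genes at least as abundant as Nefh, the medians were 7.75% in WT and 4.83% in GFAP-IL6. Of these 3233 genes, 34 passed an adjusted p of 0.05, and the smallest absolute log2 fold change among the 34 was 0.34. The 95% intervals of the members extended 0.159 to 0.254 to either side of the estimate, without adjustment over genes. The interval of Stmn2 excluded 0, yet its adjusted p by edgeR was 0.154. A call over all genes thus needed a larger change than these widths.

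Levels in some libraries ran with gene length. In WT replicate 2, the median deviation of genes from their mean over the 6 libraries ran from 0.108 (log2) in the shortest of 10 equal bins of gene length to -0.132 in the longest. The median log2 fold change over genes ran in the same bins from -0.098 to 0.088. Map1a, Map1b and Map2 (11914, 11852 and 10180 bases) belong to the longest bin, Nefm and Mapt to bin 9, and Stmn2 and Tubb3 (2073 and 1868 bases) to bin 3. WT replicate 2 was the lowest library for 6 members, namely Nefm, Nefh, Ina, Mapt, Map1a and Map1b, and the highest for Stmn2. In the bin that holds Stmn2, the median log2 fold change was -0.05, and 14.7% of genes had a lower value than Stmn2. The bins follow the deposited lengths. The longest GENCODE M21 transcript of Stmn2 has 3413 bases, so its bin and its value with the offset below depend on the length used. With an offset for gene length and GC content, an alternative added after the data were seen, 9 members were fitted lower and 1 (Ina) higher, with a median of -0.08. None passed an adjusted p of 0.05, and Stmn2 had a log2 fold change of -0.11 (adjusted p of 0.398 by edgeR). It was no longer the member that differed most. With the offset, Map2 was at -0.17 (adjusted p of 0.243) and Nefm at -0.16 (0.378). The directions of Nefm, Nefh, Mapt, Map1a and Map1b thus depended on this offset. The offset takes length and GC content together, so the part of each in these shifts cannot be told apart. The cause of the trend with length was not tested.

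**Figure D5:**
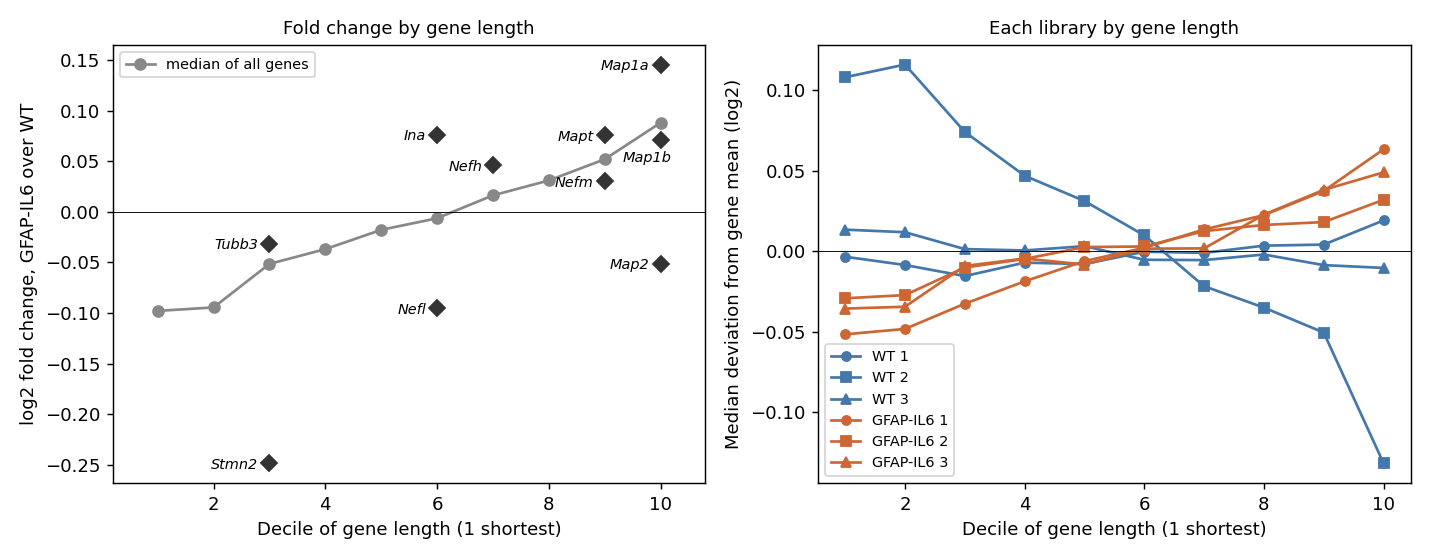
Left, log2 fold change of GFAP-IL6 over WT against the decile of gene length (10 bins) for the 10 genes (diamonds), with the median of all genes in each decile (grey line). Right, median log2 deviation from the gene mean by decile in each library, where WT replicate 2 falls from 0.108 to -0.132.

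In bulk tissue, fewer neurons and less RNA per neuron cannot be told apart. The neuron markers were therefore set beside the members. Of the 12 markers, 0 passed an adjusted p of 0.05 by edgeR, and 9 were fitted lower, with a median log2 fold change of -0.09. An unadjusted p under 0.05 was reached by 5 of the 12, against 20.5% of all genes. These 5, Snap25, Syp, Thy1, Gad1 and Gad2, were all fitted lower, at -0.23 to -0.17. Per 1000 CPM of neuron markers, Mapt had 33.2, 34.1 and 32.5 CPM in WT and 36.3, 35.1 and 38.7 CPM in GFAP-IL6. Map1a had 116, 89.7 and 114 CPM in WT and 126, 121 and 125 CPM in GFAP-IL6 on this scale. These were the members whose groups did not overlap relative to the markers, and the libraries of the other 8, Stmn2 included, overlapped. In plain CPM the groups did not overlap in 26.5% of all genes, and the share relative to the markers was not computed. Markers of layer 5 (0 of 6), upper-layer (0 of 6) and fast-spiking neurons (0 of 5), which differ in their neurofilament content, gave no call either. The sum for layer 5 was 164 to 208 CPM in WT and 177 to 192 CPM in GFAP-IL6, with 2 of 6 fitted lower. Upper-layer markers summed to 739 to 818 CPM in WT and 641 to 778 CPM in GFAP-IL6, with 4 of 6 fitted lower. Fast-spiking markers summed to 564 to 646 CPM in WT and 562 to 598 CPM in GFAP-IL6, with 4 of 5 fitted lower. In contrast, 7 of 8 microglial markers rose, while P2ry12 was fitted lower (log2 fold change of -0.27, adjusted p of 0.291 by edgeR). The sum of the 8 went from 380 to 469 CPM in WT to 768 to 881 CPM in GFAP-IL6. All 5 endothelial markers were fitted higher, and 4 of them passed an adjusted p of 0.05. All 7 oligodendrocyte markers were fitted lower without passing the test (3244 to 5973 CPM in WT and 3260 to 5092 CPM in GFAP-IL6). The part of these cell types in the values of the members was not tested.

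Other genes of the cytoskeleton were taken from a list of 98 genes, of which 95 could be tested. Tuba1c and Prph had 2 to 13 counts in each library, and Svbp was not matched by symbol. An adjusted p of 0.05 was passed by 2 genes, 2.11% against 2.86% of all genes. They were Stmn4, which fell, and Gfap, which rose. Gfap encodes the intermediate filament protein of astrocytes, and had 76.5, 123 and 84.2 CPM in WT and 517, 646 and 870 CPM in GFAP-IL6. Whether these counts include transgene transcripts was not tested. The number of calls was 7 without WT replicate 1, 3 without WT replicate 2 and 1 without each of the other 4 libraries. Of the 95 genes, 12 had an unadjusted p under 0.05 by edgeR, a smaller share than the 20.5% of all genes tested. In the same fit 43 were fitted higher and 52 lower.

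Stmn4 belongs to the same family as Stmn2. Stmn4, a neuronal stathmin, had 199, 260 and 217 CPM in WT and 177, 157 and 161 CPM in GFAP-IL6, and the groups did not overlap. By edgeR it fell by 0.45 ± 0.10 on the log2 scale (SE, adjusted p of 0.033). The call was lost without WT replicate 3 (adjusted p of 0.0613), without GFAP-IL6 replicate 1, 2 or 3 (0.0753, 0.154 and 0.199) and on the scale of neuron markers (0.108), with log2 fold changes of -0.50 to -0.39. It held without WT replicate 2 (-0.33, adjusted p of 0.0315) and with the length and GC offset (-0.39, adjusted p of 0.0248). Stmn3 had 461, 515 and 444 CPM in WT and 373, 404 and 354 CPM in GFAP-IL6, also without overlap, with a log2 fold change of -0.33 ± 0.09 (SE) and an adjusted p of 0.0642. Stmn3 passed the threshold with the offset (0.0453), with DESeq2 (0.0128), without the low-count filter (0.0126) and without WT replicate 1 (0.0445). It did not pass without any other single library (adjusted p of 0.0869 to 0.308) or on the scale of neuron markers (0.150). Stmn1 had 173, 226 and 169 CPM in WT and 173, 169 and 157 CPM in GFAP-IL6, where the groups overlapped (log2 fold change of -0.18 ± 0.11 SE, adjusted p of 0.355), and the estimate was -0.04 without WT replicate 2. Its transcript shares 36.5% of its 50-base stretches with other genes, foremost the pseudogene Gm11223, so its counts are uncertain. By the deposited lengths, all 4 stathmins are short genes of 1136 to 2073 bases, and each had its highest level in WT replicate 2. Within their bins of gene length, 5.48% of genes had a lower log2 fold change than Stmn4 and 15.04% a lower one than Stmn3.

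Of the 12 other tubulin isotypes tested, 0 passed the test, and 10 were fitted lower, with a median log2 fold change of -0.11. Tuba1a, the main α-tubulin of neurons, had a log2 fold change of -0.19 ± 0.09 (SE, adjusted p of 0.26), and Tubb2a, an abundant brain β-tubulin, one of -0.16 ± 0.09 (SE, adjusted p of 0.323). In both genes the libraries of the groups overlapped, and without WT replicate 2, their highest library, the values were -0.11 and -0.10. They were -0.14 and -0.13 with the offset for length and GC. Among 12 genes that fold or modify tubulin, 0 passed the test and 8 were fitted lower. Ttll7, which adds glutamate chains to tubulin, had a log2 fold change of -0.24 ± 0.08 (SE, adjusted p of 0.13), and Tbca, a tubulin folding cofactor, one of -0.42 ± 0.16 (SE, adjusted p of 0.182). In both genes the groups did not overlap. WT replicate 2 was the highest library for Tbca, at 42.5 CPM against 21.4 to 27.6 CPM elsewhere, and without it the log2 fold change was -0.17. The offset for length and GC gave -0.20 for Tbca and -0.22 for Ttll7.

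None of the 21 other microtubule-binding proteins passed the test, with 13 fitted higher and a median of 0.02. The smallest p values were those of Map7d2 (log2 fold change of -0.22 ± 0.09 SE, adjusted p of 0.179) and the widely expressed Map4 (-0.12 ± 0.08 SE, adjusted p of 0.418, or -0.33 with the offset for length and GC). Among 16 kinesin, dynein and dynactin genes, 0 passed, with Dynll2, a dynein light chain, at -0.22 ± 0.07 (SE, adjusted p of 0.135) and Dync1h1, the dynein heavy chain, at 0.28 ± 0.11 (SE, adjusted p of 0.197). Dync1h1 was at 0.16 without WT replicate 2, its lowest library, at 0.42 without WT replicate 1, where it passed (adjusted p of 0.0249), and at 0.04 with the offset, with which Dynll2 passed (0.0399). None of 12 tau kinases and activators passed, with Ttbk1 at 0.41 ± 0.15 (SE, adjusted p of 0.165) and Mark2 at 0.17 ± 0.10 (SE, adjusted p of 0.349). Ttbk1 had 124, 72.5 and 109 CPM in WT and 130, 129 and 147 CPM in GFAP-IL6. Its lowest library was again WT replicate 2, without which Ttbk1 was at 0.22 and Mark2 at 0.08. With the offset they were at 0.23 and 0.004, and without WT replicate 1 Ttbk1 passed (0.58, adjusted p of 0.0353) and Mark2 was at 0.26 without passing. The spectrins, ankyrins and plakins of the axon gave 0 calls of 8. Sptbn4, the spectrin of the axon initial segment, had a log2 fold change of 0.33 ± 0.11 (SE, adjusted p of 0.135), and Macf1, which links actin to microtubules, one of 0.27 ± 0.13 (SE, adjusted p of 0.245). Without WT replicate 2 they were at 0.21 and 0.12, and with the offset at 0.01 and 0.08. Sptbn4 passed without WT replicate 1 (0.46, adjusted p of 0.0231). Without the low-count filter, Sptbn4, Ttbk1 and Tbca passed as well (adjusted p of 0.0259, 0.0117 and 0.0267).

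The profile of the members over the 6 libraries was compared by the root mean square difference of centred log2 CPM. The closest pair was Nefm and Nefh, at 0.0393, followed by Nefh and Ina at 0.0590. From the mean profile of Nefl, Nefm and Nefh, Ina was at 0.0582 and ranked 72 of 15338 genes, while the median gene was at 0.179. Mapt and Tubb3 ranked 1676 and 1711, Map1b 3726, Map2 4232, Map1a 6252 and Stmn2 8323. The nearest genes outside the list were Dhx8 (0.0275), Ubxn2a (0.0329) and RP24-80F7.3 (0.0345). With 6 libraries and many genes, close profiles arise in number, and the values are given as a description.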

How the data were processed

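Frontal cortex libraries of 3 WT and 3 GFAP-IL6 mice were grouped by the sample titles. The deposited values are raw counts, whole numbers per gene, with no normalization by the authors. According to the study's methods, reads were aligned to mm10 with STAR and uniquely aligned reads were counted over GENCODE genes with featureCounts. The deposited gene length served for TPM. Differential expression was tested with edgeR 4.0.16 (R 4.3.3; quasi-likelihood F-test, TMM scaling, filterByExpr, group as the only term) with Benjamini-Hochberg adjustment over 15341 genes, and standard errors were derived from the F statistic. DESeq2 1.42.0, limma-voom 3.58.1, other scalings and filters, thinning, a replicate block and leaving out each library were run as alternatives. On simulated counts, edgeR recovered 98.5% of 200 changed genes among 15332, with 5.29% false calls. Recovery at log2 fold changes as small as those of the members was not tested.

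Members and gene lists were chosen with earlier results of these data known. All 10 members were named, then in each wider group the genes past an adjusted p of 0.05, or else the 2 with the smallest p, and the 3 genes nearest to the neurofilament profile. Vim and Tbcb, which also had an unadjusted p under 0.05, fell outside this rule, and Stmn3 and Stmn1 were named as relatives of Stmn2 after their values were seen. Where a symbol had several rows, the row with most counts was used. Positions are from GENCODE M21 (GRCm38), to which 32593 of 33000 identifiers matched. GC content was known for 15268 tested genes. Depth was 7559524 to 16877001 counts per library. No pair of libraries agreed within sampling noise.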

Additional observations from a re-analysis of the deposited data

How the results depend on the processing

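Over 16 alternatives, none of the 160 values of the 10 members passed an adjusted p of 0.05, and 14 values in 7 members had the other sign, while Nefl, Ina and Stmn2 kept theirs. An offset for gene length and GC, chosen after seeing the data, gave log2 fold changes of -0.16 for Nefm, -0.0917 for Nefh, -0.0531 for Mapt, -0.0813 for Map1a and -0.0558 for Map1b. Scaled to neuron markers, a scaling that moved the median of all genes from -0.0038 to 0.06, they were 0.0168 for Map2 and 0.0335 for Tubb3. The median of the members was 0.10 with that scaling and -0.0794 with the offset. Leaving out 1 library at a time gave -0.0431 to 0.0922 for this median, lowest without WT replicate 2 and highest without GFAP-IL6 replicate 3, and -0.0865 to 0.1032 for Nefm, -0.0522 to 0.1087 for Nefh, -0.0998 to 0.038 for Map2 and -0.073 to 0.051 for Tubb3. The wider list gave 1 call with neuron scaling, 7 without the low-count filter, 4 with DESeq2, 5 with the offset and 1 to 7 when a library was left out. All genes gave 1154 calls without the filter, 750 with the replicate block and 187 (without GFAP-IL6 replicate 3) to 1061 (without WT replicate 1) when a library was left out, with 282 without GFAP-IL6 replicate 2. The cause of these differences was not tested.

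Same-numbered libraries had correlations of deviations of 0.123, 0.0192 and 0.0505, and not every library correlated best with its own number, so the numbers were not taken as pairs. With the replicate number as a block, 0 members passed and Stmn2 had an adjusted p of 0.087, while Stmn3 passed (0.0223).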

Other observations

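A separate row of the table named Dst, the gene of the plakin dystonin, was counted 15, 11 and 20 times in the WT libraries and 25, 22 and 19 times in the GFAP-IL6 libraries, with a log2 fold change of 1.18 and an adjusted p of 0.0752 by edgeR. The main row of Dst had a log2 fold change of -0.06 and 430 to 1178 counts. Vim, an intermediate filament gene of glia and vessels chosen after its values were seen, had 25.3, 34.2 and 20.8 CPM in WT and 32.4, 38.03 and 50.9 CPM in GFAP-IL6, with a log2 fold change of 0.59 ± 0.18 (SE) and an adjusted p of 0.111.

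Choroid plexus markers summed to 602 CPM in WT replicate 3 and to 3.14 to 58.6 CPM in the other libraries. WT replicate 3 was the highest library for Map2 and, by a small margin, for Nefl.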
